A study of Mus musculus with 2 samples.

Results

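Expression of 48 genes of the Wnt pathway was compared in the posterior end of mouse embryos with reduced Cdx function. The genes were taken by name, with earlier results of these data known. Of them, 16 code for Wnt ligands, 13 for receptors and 10 for antagonists that act outside the cell or at its surface. The other 9 code for intracellular components and feedback regulators. They are 48 of 32762 named genes with a probe on the array. The mutant embryos were heterozygous for Cdx2 and lacked Cdx4 (Cdx2+/-Cdx4-/-), and the controls were wildtype. Posterior tissue was taken at 13 somites, cut at 1 axial level set by the youngest somite border, and material of 7 embryos was pooled per genotype. The strain and the structure of the alleles are not given in the sources used here. Pooled RNA of the genotypes was hybridised together on a pair of 2-colour oligonucleotide arrays. The mutant RNA was labelled with Cy5 on replicate 1 and, in the dye swap, with Cy3 on replicate 2.

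The labels describe 1 pool per genotype, and the arrays were read as the same comparison in opposite dye orientations. Differences between genotypes therefore have no biological replicate check and no p-value, and each SD below is the technical spread of 2 arrays. In whole tissue, fewer cells of a type and less RNA per cell cannot be told apart. A gene counts as detected where the scanner software marked the same genotype, mutant or wildtype or both, as well above background on replicate 1 and on replicate 2. It was called when its normalized log2 ratio of mutant over wildtype reached 1.5-fold (0.585 on the log2 scale) in the same direction on each array, and a looser limit of 1.3-fold was read beside it. The targeted genes were read first: replicates 1 and 2 gave Cdx4 log2 ratios of -2.61 and -2.44. Cdx2, of which the mutants carry 1 intact allele by the label, had means of -0.05 ± 0.09 and 0.00 ± 0.24 with its 2 probes, neither larger than its own spread. The sources used here do not place these probes relative to the altered part of the gene. All 9 markers of tailbud and presomitic tissue were detected, among them T (Brachyury), which stood at a log2 signal of 12.79 and 12.86 in the wildtype pool. Of 6 forebrain markers, 5 were detected at low signals and Otx2 was not well above background.

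Wnt ligands are secreted lipid-modified proteins that bind Frizzled receptors and the co-receptors Lrp5 and Lrp6. In the canonical branch this stabilises beta-catenin (Ctnnb1), which joins Tcf and Lef factors on target genes. Other ligands signal without beta-catenin and steer cell movement and polarity. In the tailbud, Wnt3a maintains the progenitors of the trunk and tail, Wnt5a is needed for axis elongation, and Cdx genes are themselves known targets of Wnt signalling.

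Of the 48 genes, 45 were detected. Fzd5 and Wnt7b did not meet this rule. Wnt7b was not well above background in any channel, and 1 of the 2 Fzd5 probes was so in the mutant pool on replicate 1 and in the wildtype pool on replicate 2. The Frzb spot was left out on replicate 2 because of uneven pixels, and its log2 ratio on replicate 1 alone was 0.44. Detection held in both genotypes for 43 genes, while Wif1 and Axin2 passed through the mutant pool only. None of the 60 probes for these genes was saturated.

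The ligand Wnt2 and the ubiquitin ligase Rnf43 were lower in the mutant pool and the receptor Fzd7 was higher, all by more than 1.5-fold on each array. The share of all detected genes called lower was 0.232%, and the share called higher was 0.209%. At 1.3-fold on each array, 6 detected members were higher and 4 were lower, against 0.538% and 0.75% of all detected genes. These 10 were 22.2% of the 45, and 1.29% of all detected genes passed in either direction. The members higher at this limit were Wnt6, Wnt7a, Wnt8a, Fzd7, Fzd9 and Nkd1. The members lower at it were Wnt2, Wnt3a, Wnt5a and Rnf43. For 16 detected members both mutant signals lay above both wildtype signals, and for 10 both lay below, against 9.53% and 10.7% of all detected genes. For genes past 1.3-fold on each array this lack of overlap largely follows from that limit and is no further support. The median log2 ratio of the 45 was 0.03, while that of all detected genes was 0.00. On both arrays 19 of the 45 (42.2%) lay above 0 and 11 below, against 23.3% and 24.4% of all detected genes. Wif1, detected through the mutant pool only, counts among both the 16 and the 19. The SD over the 45 genes was 0.33, compared with 0.14 over all detected genes. The members were chosen with earlier results of these data known. Their shares and SD beside all detected genes therefore describe the chosen list. They do not show that Wnt genes differed more often than other genes.

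**Figure D1:**
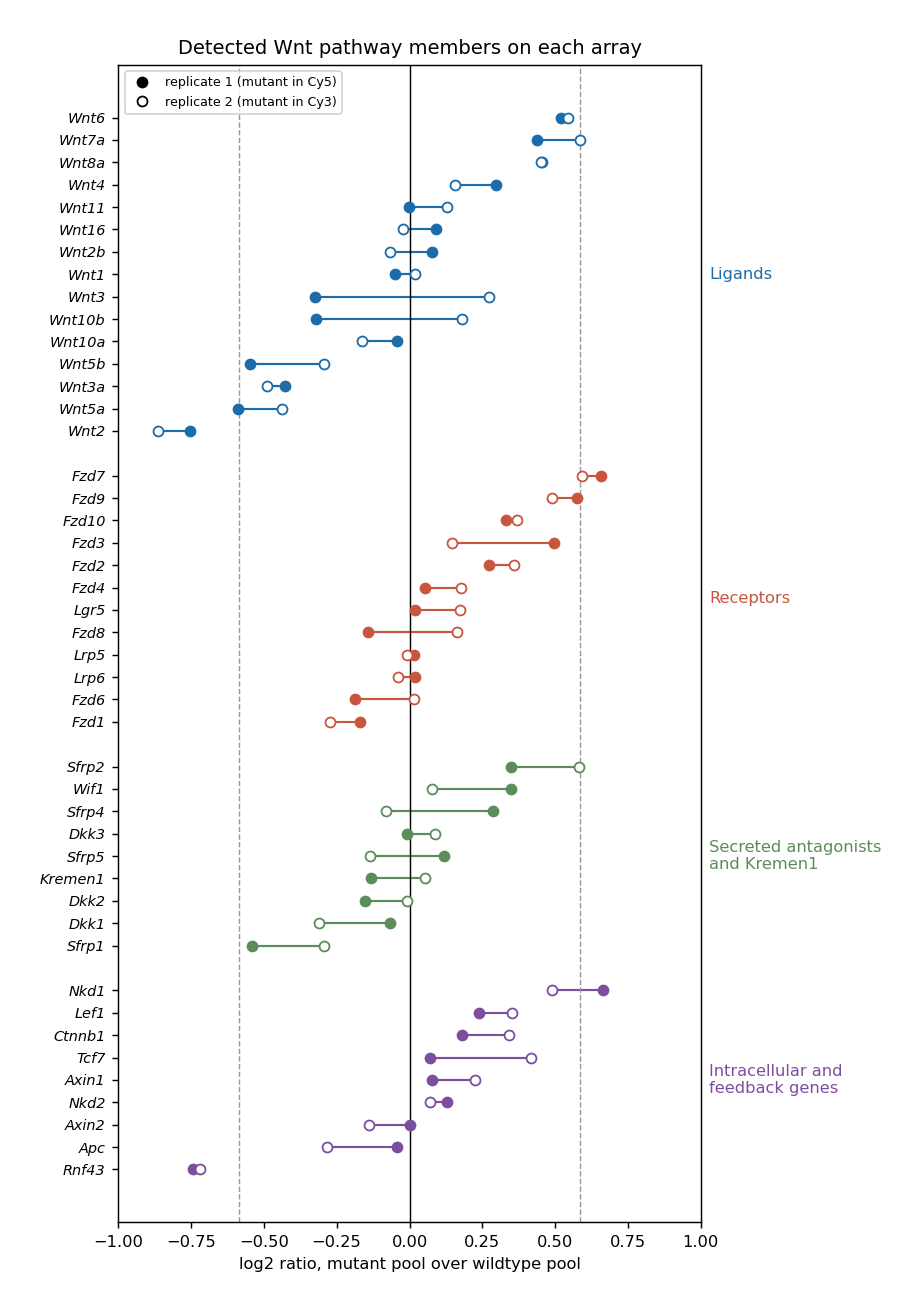
Log2 ratio of mutant over wildtype for the 45 detected members, grouped by role and ordered by mean; filled points are replicate 1, open points replicate 2, and dashed lines mark 1.5-fold. Wnt2 and Rnf43 lie beyond the lower line and Fzd7 beyond the upper line on each array, while Wnt3 and Wnt10b lie on opposite sides of 0.

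The arrays ordered the members in much the same way. Over the 45 detected members, Pearson's r between the arrays was 0.82 and Spearman's rho 0.73, and over all 25855 detected genes the values were 0.067 and -0.023. These are correlations across genes on arrays that share their RNA pools, and genes are not replicates. Such a correlation rises with the SD over genes, which was 0.33 for the members and 0.14 for all detected genes. The median SD between arrays was 0.10 in both sets, so the members were not measured more evenly. No member would have been called had the second array not been turned to mutant over wildtype, against 90 genes in all. With it turned, 114 of all detected genes were called, so the rule passed nearly as many genes in the wrong orientation.

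**Figure D2:**
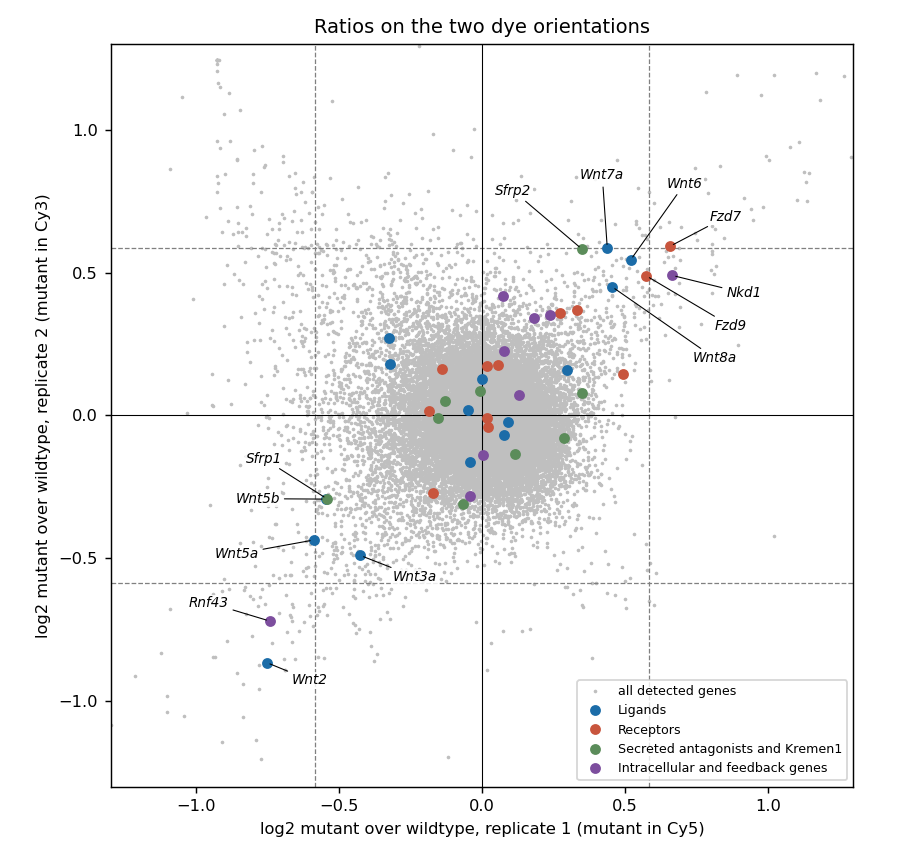
Log2 ratio on replicate 2 (vertical) against replicate 1 (horizontal), with all detected genes in grey and members coloured by role; dashed lines mark 1.5-fold, and genes beyond the axes are not drawn. The members at either end of the range lie in the quadrants where both dye orientations gave the same sign, with Wnt2 at -0.75 and -0.87 and Fzd7 at 0.66 and 0.59.

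Among the ligands, Wnt2, Wnt3a and Wnt5a were lower in the mutant pool and Wnt6, Wnt7a and Wnt8a were higher. Of 15 detected ligands, 1 was called lower and none higher, and at 1.3-fold 3 were lower and 3 higher. Their median log2 ratio was -0.02. It was -0.04 on replicate 1 and 0.02 on replicate 2.

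Wnt2, a ligand known from the allantois, placental vessels and lung mesenchyme, had the lowest ratio of all 45 genes. Its log2 signal was 11.08 in the wildtype pool and 10.32 in the mutant pool on replicate 1, and 10.90 and 10.03 on replicate 2. Both mutant values lay below both wildtype values. The ratio was -0.81 ± 0.08 (SD of 2 arrays), or 1.75-fold lower. With median centring of the arrays the call ended, at -0.27 and -1.50. The probe spans 17770610 to 17772723 on chromosome 6 in the coordinates of the files, for which no genome build is named. The promoter of the gene is shown because it is the member with the largest difference. The 250 bases upstream of its start (RefSeq, GRCm38.p6, minus strand, chr6:18030446-18030695) read as follows, and would carry capitals at a match to either motif searched.
Wnt2: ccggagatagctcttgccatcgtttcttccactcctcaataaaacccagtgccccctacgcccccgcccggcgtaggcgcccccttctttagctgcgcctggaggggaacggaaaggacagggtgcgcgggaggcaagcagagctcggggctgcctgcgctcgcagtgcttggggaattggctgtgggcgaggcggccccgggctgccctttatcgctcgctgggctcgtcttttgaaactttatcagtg

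The motifs were CTTTGA, a core that Tcf and Lef factors bind, and TTTATG, a core that Cdx factors bind, each on both strands. They did not overlap each other in any window, and no other forms of these sites were searched. Neither was found in the Wnt2 window. Of all 32851 promoter windows of 250 bases, 13.8% held the first and 10.8% the second. RefSeq windows were matched for 31 of the 48 genes, with 40 start sites, of which 6 held CTTTGA and 2 held TTTATG. Among the 10 genes past 1.3-fold, 8 had windows, and none of their 9 start sites held either.

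Wnt3a, the tailbud ligand, had log2 signals of 8.99 in wildtype and 8.57 in mutant on replicate 1, and of 9.04 and 8.55 on replicate 2. The mutant values were nearly the same on the arrays and below both wildtype values. The ratio was -0.46 ± 0.05 (1.37-fold lower), short of the 1.5-fold limit. Its probe spans 58887904 to 58903158 on chromosome 11.

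Wnt5a, which signals mainly through the receptor Ror2, gave 9.49 in wildtype and 8.90 in mutant on replicate 1, and 9.35 and 8.91 on replicate 2. The pools did not overlap, and the ratio of -0.51 ± 0.11 passed 1.5-fold on replicate 1 only. Wnt5b, its closest relative, had ratios of -0.55 and -0.29 (mean -0.42 ± 0.18), past 1.3-fold on replicate 1 alone. Both mutant signals of Wnt5b lay below both wildtype signals.

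Wnt6, a ligand of the surface ectoderm, was the highest ligand. Its log2 signals were 9.46 in wildtype and 9.98 in mutant on replicate 1, and 9.37 and 9.91 on replicate 2. The ratio was 0.53 ± 0.02 (1.45-fold higher). Both arrays gave nearly the same ratio, and the pools did not overlap.

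Wnt7a, known from the dorsal limb ectoderm and the neural tube, had 8.39 in wildtype and 8.83 in mutant on replicate 1, and 8.24 and 8.83 on replicate 2. Its ratio was 0.51 ± 0.10. A second, dimmer Wnt7a probe gave ratios of 0.02 and 0.19 (mean 0.10), so the probes differed by 0.41. With the median over both probes the ratio was 0.31, no longer past 1.3-fold on each array.

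Wnt8a, a ligand of the primitive streak and posterior epiblast, had ratios of 0.45 on each array. Its signals were dim, at 6.50 in wildtype and 6.95 in mutant on replicate 1, and 6.45 and 6.90 on replicate 2. The mean of 0.45 ± 0.0025 was the most even between arrays of the 10 genes past 1.3-fold. Its size depends on how background is treated, with 0.32 without background subtraction and 1.02 in the scanner software's ratio.

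Of the other ligands, Wnt4 had 0.30 and 0.16, with no overlap between pools. Wnt3, needed earlier for the primitive streak, had -0.33 on replicate 1 and 0.27 on replicate 2, and Wnt10b had -0.32 and 0.18. Their arrays disagreed in sign, and both signals were dim. The other Wnt3 probe gave 0.01 and -0.25. The remaining ligands, Wnt1, Wnt2b, Wnt10a, Wnt11 and Wnt16, had means between -0.10 and 0.06. Dimmer probes gave means of 0.15 for Wnt1 and -0.09 for Wnt16.

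**Figure D3:**
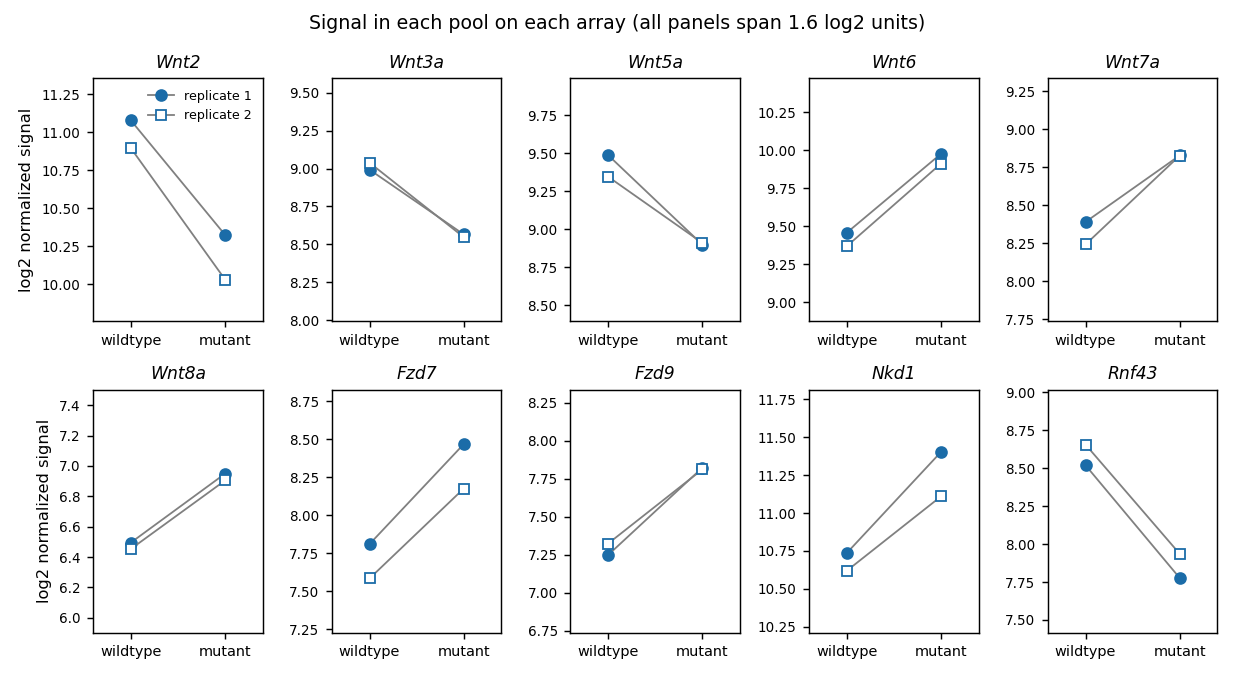
Log2 normalized signal in the wildtype and mutant pool for the 10 members past 1.3-fold on each array; each line joins the pools on 1 array (filled circles replicate 1, open squares replicate 2), and each panel spans the same range. In all 10 panels both mutant signals lie on the same side of both wildtype signals, which the choice by 1.3-fold on each array largely fixed. Levels are not comparable between panels, since probes differ.

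Among the receptors, Frizzled genes lay mostly above 0 and the brightest probes of the co-receptors Lrp5 and Lrp6 lay close to 0. Of 12 detected receptor genes, 1 was called higher and none lower, and 7 lay above 0 on both arrays against 1 below. The receptor median was 0.11, with 0.04 on replicate 1 and 0.17 on replicate 2. Of the 9 detected Frizzled genes, 6 lay above 0 on both arrays, except with median centring, where 2 did. Their median was 0.32, and 0.23 with median centring.

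Fzd7, a receptor of early embryonic and mesodermal tissue, had log2 signals of 7.81 in wildtype and 8.47 in mutant on replicate 1. On replicate 2 they were 7.58 and 8.18. Both arrays put the mutant pool higher, by 0.63 ± 0.05 (1.54-fold), and the pools did not overlap. The probe lies at chr1:59889107-59889166 in the files' coordinates. The call ended without background subtraction (0.53) and with median centring of the arrays. The upstream window of Fzd7, the only receptor called (RefSeq, GRCm38.p6, plus strand, chr1:59481897-59482146), held neither motif.
Fzd7: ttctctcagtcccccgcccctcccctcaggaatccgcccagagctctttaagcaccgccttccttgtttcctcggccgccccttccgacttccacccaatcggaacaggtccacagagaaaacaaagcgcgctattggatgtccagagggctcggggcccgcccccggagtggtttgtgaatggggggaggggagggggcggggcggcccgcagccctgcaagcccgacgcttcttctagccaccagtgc

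Fzd9, known from the neural tube, had 7.25 in wildtype and 7.82 in mutant on replicate 1, and 7.32 and 7.81 on replicate 2. Its ratio was 0.53 ± 0.06 (1.45-fold), below the limit on each array. With a background offset of 16 it passed, at 0.72 and 0.60.

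Fzd10, Fzd2 and Fzd3 followed, all without overlap between pools. Fzd10 had 0.33 and 0.37, Fzd2 had 0.27 and 0.36, and Fzd3 had 0.50 and 0.15. The Fzd3 probe used is listed under a clone name and was matched to the gene by a synonym only. A dimmer Fzd3 probe, matched by accession, gave a mean of 0.26 beside 0.32. None of these 3 was past 1.3-fold on each array.

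Fzd1 was the lowest receptor, with -0.17 and -0.27 (mean -0.22 ± 0.07), and its dimmer probe gave 0.00. The co-receptors Lrp5 and Lrp6 had means of 0.00 ± 0.02 and -0.01 ± 0.04. A dimmer Lrp5 probe gave -0.33 and -0.05 (mean -0.19 ± 0.20), with overlapping pools. Lgr5, a receptor for R-spondins and a target of the pathway, was dim and had 0.02 and 0.17. Fzd4, Fzd6 and Fzd8 had means between -0.09 and 0.12.

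Among the antagonists no gene was called in either direction, and none passed 1.3-fold on each array. The 9 detected genes had a median of -0.01. Members of the secreted Frizzled-related family, which bind Wnt ligands outside the cell, stood at either end.

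Sfrp2 was the highest, with log2 signals of 8.46 in wildtype and 8.81 in mutant on replicate 1, and 8.38 and 8.96 on replicate 2. Its ratio was 0.47 ± 0.16. Sfrp1 was the lowest, with 8.50 in wildtype and 7.96 in mutant on replicate 1, and 8.22 and 7.93 on replicate 2. Its ratio was -0.42 ± 0.18, and the pools overlapped for neither gene. The relatives Sfrp4 and Sfrp5 had ratios of opposite sign on the arrays, 0.29 and -0.08 for Sfrp4 and 0.12 and -0.14 for Sfrp5. On replicate 2 both were dim, with log2 signals of 6.30 in wildtype and 6.22 in mutant for Sfrp4, and 6.53 and 6.40 for Sfrp5.

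Dkk1, which blocks Lrp5 and Lrp6 and is a target of the pathway, had -0.07 and -0.31 (mean -0.19 ± 0.17). Its relatives Dkk2 and Dkk3 had means of -0.08 and 0.04. Kremen1, a Dkk receptor, had -0.04 ± 0.13 with its brighter probe and -0.03 with the other. Wif1, a secreted inhibitor that binds Wnt ligands, had 0.35 and 0.08, and its wildtype signal was not well above background on replicate 1.

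Windows of Sfrp2 and Dkk1 are shown because they hold the motifs searched, which stand in capitals. Sfrp2 (plus strand, chr3:83766071-83766320) held the Cdx core once, read on the opposite strand. Dkk1 (minus strand, chr19:30549497-30549746) held the Tcf and Lef core on each strand. A match is a description of these letters only.
Sfrp2: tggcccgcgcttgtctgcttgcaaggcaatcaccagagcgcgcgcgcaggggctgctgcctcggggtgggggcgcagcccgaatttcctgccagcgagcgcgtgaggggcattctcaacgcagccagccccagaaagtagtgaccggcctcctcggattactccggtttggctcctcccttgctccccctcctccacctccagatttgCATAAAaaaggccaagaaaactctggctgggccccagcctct
Dkk1: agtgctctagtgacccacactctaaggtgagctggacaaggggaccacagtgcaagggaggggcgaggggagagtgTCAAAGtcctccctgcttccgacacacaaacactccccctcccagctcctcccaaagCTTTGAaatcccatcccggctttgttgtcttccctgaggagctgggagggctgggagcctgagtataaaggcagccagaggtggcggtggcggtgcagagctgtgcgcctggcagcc

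The intracellular and feedback genes included Rnf43 and Nkd1, which both restrain Wnt signalling and stood at opposite ends of this group. Of 9 detected genes, 1 was called lower and none higher, 6 lay above 0 on both arrays and 2 below. Their median was 0.15. It was 0.08 on replicate 1 and 0.23 on replicate 2.

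Rnf43, a membrane ubiquitin ligase that removes Frizzled receptors from the cell surface, had log2 signals of 8.52 in wildtype and 7.78 in mutant on replicate 1. On replicate 2 they were 8.65 and 7.93. The ratio was -0.73 ± 0.02 (1.66-fold lower), and the pools did not overlap. The probe is listed under an older clone name, matched to Rnf43 by its accession, and lies at chr11:87337107-87337166 in the files' coordinates. With median centring it was -0.41 on replicate 1 and -1.17 on replicate 2, past 1.3-fold on each array. RefSeq gives Rnf43 more than 1 start site. The window of the first of them, shown because Rnf43 is the only feedback gene called (plus strand, chr11:87662837-87663086), held neither motif.
Rnf43: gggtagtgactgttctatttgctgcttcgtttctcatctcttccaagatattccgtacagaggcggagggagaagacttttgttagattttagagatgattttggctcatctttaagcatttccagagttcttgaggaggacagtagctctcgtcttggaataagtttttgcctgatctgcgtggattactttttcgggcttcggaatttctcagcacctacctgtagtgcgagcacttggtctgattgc

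Nkd1, an inhibitor of Dishevelled and a target of the pathway, had 10.74 in wildtype and 11.40 in mutant on replicate 1, and 10.62 and 11.11 on replicate 2. Its ratio was 0.58 ± 0.12 (1.49-fold higher), with 0.67 on replicate 1, past the limit, and 0.49 on replicate 2, short of it. Nkd2, its relative, had 0.13 and 0.07. Axin2, the most widely used reporter of canonical Wnt signalling, was close to background. Its log2 signals were 6.19 and 6.19 on replicate 1 and 6.25 in wildtype and 6.11 in mutant on replicate 2. The pools overlapped, and the ratio of -0.07 ± 0.10 was smaller than its own spread.

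The transcription factor Lef1 had 0.24 and 0.35 (mean 0.29 ± 0.08), and its partner Ctnnb1 had 0.18 and 0.34 (mean 0.26 ± 0.11). Both lay higher in the mutant pool without overlap and below the limits. Tcf7 had 0.07 on replicate 1 and 0.42 on replicate 2, with overlapping signals. The scaffold genes Axin1 and Apc had means of 0.15 and -0.16.

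The calls depended on the within-array normalization. With median centring in place of loess no member was called, and 2 of the 10 genes past 1.3-fold, Rnf43 and Wnt8a, were still past it. Each of the 10 kept the sign of its mean in all 6 alternatives that used both arrays. Of these alternatives, dropping the detection rule left all 10 ratios unchanged, and the median over probes changed Wnt7a only. Those settings could not move the sign of the other genes. Over all genes, median centring left medians of 0.15 on replicate 1 and -0.19 on replicate 2, and 62.8% of the calls were then higher against 47.4%.

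**Figure D4:**
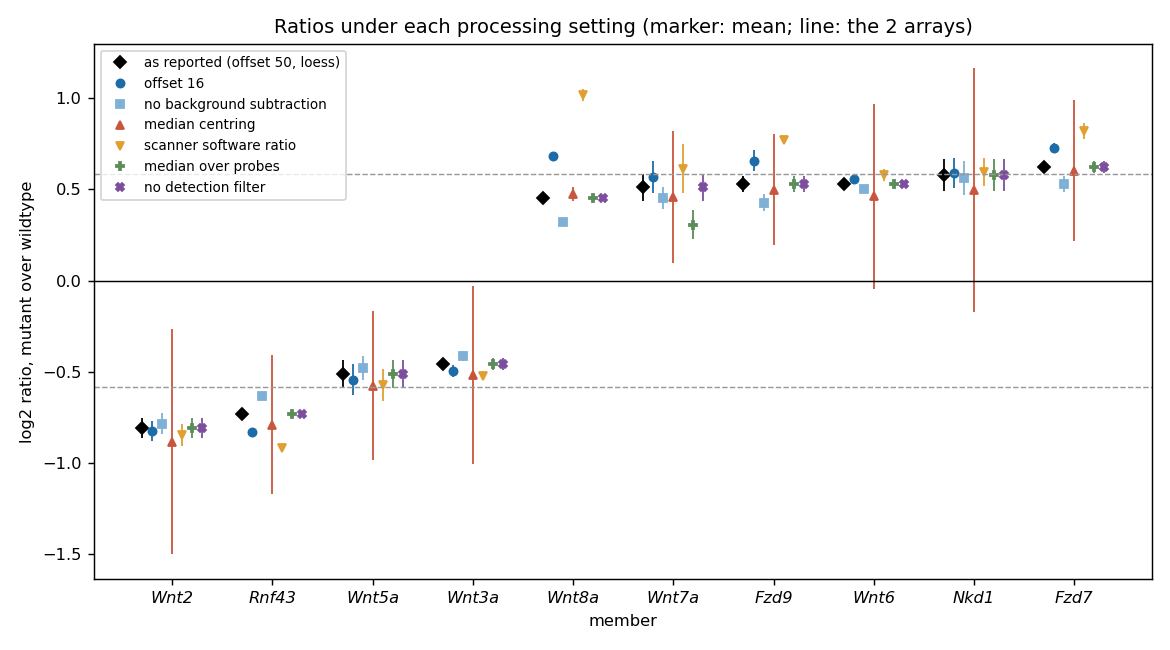
Log2 ratio of mutant over wildtype for the 10 members past 1.3-fold under 7 processing settings; markers are means of the arrays, lines join the arrays and dashed lines mark 1.5-fold. The means keep their side of 0 in every setting, while median centring spreads the arrays widely, as for Nkd1 at 1.17 and -0.17.

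Other genes of the pathway were read from lists of 82 genes, 75 of them detected. Dll1 was the only one called, and at 1.3-fold 3 were higher and 2 lower. At 1.5-fold this was 1.33% of the 75 and at 1.3-fold 6.67%, against 0.441% and 1.29% of all detected genes. These lists were also chosen with earlier results of these data known, so their shares describe the chosen genes only. The median log2 ratio of the 75 was 0.04. Among 10 genes for Wnt production and R-spondins none was called, and Rspo1 was the highest at 0.25 ± 0.06, followed by Rspo4 at 0.14 ± 0.12.

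Of 16 other receptors and surface proteins none was called, but 3, Ror2, Gpc3 and Cthrc1, were past 1.3-fold on each array. Ror2, the receptor of Wnt5a, had 0.49 and 0.44 (mean 0.47 ± 0.04), and was higher in the pool in which Wnt5a was lower. Gpc3, a heparan sulphate proteoglycan, had 0.60 and 0.42, and Cthrc1, a secreted Wnt co-factor, had -0.44 and -0.38. Lgr4, an R-spondin receptor, had -0.36 and -0.57. Ror2 and Cthrc1 were named after their values were seen.

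Of 26 cytoplasmic and nuclear components and 10 planar polarity genes none was called. The components ranged from -0.26 to 0.28, with Tle4 at 0.28 ± 0.05 and Pygo2 at 0.27 ± 0.24. Among the polarity genes Prickle3 had -0.35 ± 0.12 and Scrib 0.18 ± 0.06. The median of these lists was 0.03 and -0.06.

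Of 13 genes known as Wnt targets or partners in the tailbud, Dll1, a Notch ligand, was called higher, with log2 signals of 9.90 in wildtype and 10.55 in mutant on replicate 1, and 9.81 and 10.49 on replicate 2. The ratio was 0.67 ± 0.02 (1.59-fold), a call that ended with median centring. T had -0.52 and -0.47 and lay on the same side as Wnt3a, while Sp5 had 0.39 and 0.19. On both arrays 6 of the 13 lay above 0 and 3 below, and the median was 0.10, with -0.02 on replicate 1 and 0.18 on replicate 2. T and Sp5 were named after their values were seen.

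**Figure D5:**
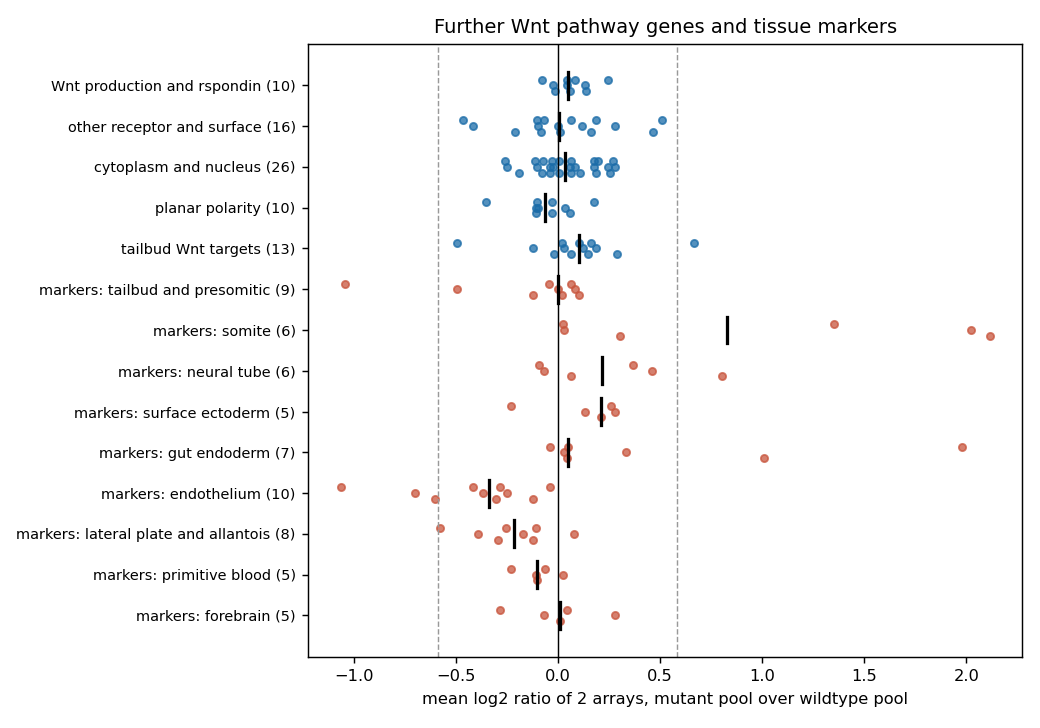
Mean log2 ratio of mutant over wildtype for detected genes of the further Wnt pathway lists (blue) and the tissue marker lists (red), with the number detected in brackets; black bars are medians and dashed lines mark 1.5-fold. The pathway lists centre near 0, with medians from -0.06 to 0.10, while endothelial markers lie below 0 and somite markers extend above 2.

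Tissue markers differed between the pools beside these genes. For comparison, 23.3% of all detected genes lay above 0 on both arrays and 24.4% below. The marker lists, too, were chosen with earlier results of these data known. All 10 endothelial markers were detected and 9 lay below 0 on both arrays (median -0.34). Their summed signal was 4622 and 4417 in wildtype and 3227 and 3045 in mutant on replicates 1 and 2, and none was below background. Of 8 lateral plate and allantois markers, 6 lay below 0 on both arrays and none above (median -0.21), with summed signals of 6126 and 6854 in wildtype and 6198 and 5349 in mutant. The endothelial sums were lower in the mutant pool on both arrays, as Wnt2 was. The lateral plate and allantois sum was lower on replicate 2 only, and rested mostly on Bmp4. Bmp4, by far the brightest of these 8, had ratios of 0.12 and -0.34 on replicates 1 and 2. The part of the endothelial, lateral plate and allantois markers in the Wnt2 ratio was not tested.

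Of 6 detected somite markers, 4 lay above 0 on both arrays and 3 were called higher, with summed signals of 2765 and 2861 in wildtype and 4331 and 4090 in mutant. Pax1 and Uncx were not well above background. Of 6 detected neural tube markers, 3 lay above 0 on both arrays and 2, Pax6 and Nkx6-1, below. Sox2 was called higher (0.81 ± 0.08). The 6 summed to 2400 and 2736 in wildtype and 2692 and 3083 in mutant. Nkx6-1, the brightest of them, had ratios of -0.17 and -0.02. Sox3 and Olig2 were not well above background. Of 5 detected surface ectoderm markers, 4 lay above 0 on both arrays and Krt8 below, with -0.36 and -0.10. The 5 summed to 29664 and 31235 in wildtype and 30858 and 33777 in mutant. Krt8 and Krt18, by far the brightest, carried most of these sums. Tfap2a was not well above background. The part of somite, neural tube and surface ectoderm markers in the ratios of Wnt6, Wnt7a, Fzd7 and Fzd9 was not tested.

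The 9 tailbud markers summed to 11561 and 11228 in wildtype and 8676 and 8733 in mutant. Cyp26a1 was the only one called (-1.04 ± 0.08), and their median was 0.00. Without T and Cyp26a1, left out after their values were seen, the other 7 summed to 3201 and 2519 in wildtype and 3132 and 2722 in mutant. The lower sum in the mutant pool thus rested on T and Cyp26a1. The part of these markers in the ratios of Wnt3a and Wnt5a was not tested. Of 7 gut endoderm markers, 2 were called higher. Gut endoderm, primitive blood and forebrain markers had medians of 0.05, -0.10 and 0.01.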

How the data were processed

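Scanner output of 2 arrays was used. Its intensity columns, as deposited by the authors, hold each spot's mean brightness and median local background in both dyes, before normalization. The log10 ratio of Cy5 over Cy3 that the authors deposited, which the software had dye-normalized, served as an alternative. Agilent Feature Extraction is given as version 9.5.3 in the submitters' processing notes and as 7.5.1 in the file headers.

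Intensities were corrected with normexp (limma 3.58.1, R 4.3.3, offset 50), normalized by loess within each array with control spots at weight 0, and turned to mutant over wildtype by the dyes in the labels. Non-uniform spots were left out (205 and 90). An offset shrinks the ratios of dim genes. The brightest detected probe stood for a gene, and signals per pool were taken after Aquantile normalization. Well above background were 77.4% to 82.5% of gene spots, depending on array and dye. Over 7 probes printed many times, the SD of the log2 ratio within an array was 0.16 and 0.23. Probes were named through accessions (19435 of 41013), symbols or synonyms in RefSeq for GRCm38.p6.

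The members and lists were chosen with earlier results of these data known. By the rule for named genes, values per array were given for members past 1.3-fold, the extremes of each role, members whose probes differed by over 0.4, and Wnt3a, Wnt5a, Wnt8a, Dkk1, Axin2, Lef1, Tcf7 and Lgr5. In each further list, genes past 1.5-fold were named, or else the 2 farthest from 0. Other members with values per array, and T and Sp5, were added after their values were seen.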

Additional observations from a re-analysis of the deposited data

How the results depend on the processing

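No paired analysis was possible because, beyond the pairing of both pools within an array that every ratio already holds, there is no further replicate to block on. Compared with 1 member called higher and 2 lower, an offset of 16 gave 3 and 2 (Fzd7, Fzd9 and Wnt8a higher), as did the software's ratio. Leaving background in gave 0 and 2. Median centring gave 0 and 0, a 2-fold limit also 0 and 0, and a 1.3-fold limit 6 and 4. On replicate 1 alone, 2 were higher (Fzd7 and Nkd1) and 3 lower, with Wnt5a added. On replicate 2 alone, 2 were higher (Fzd7 and Wnt7a) and 2 lower. The receptor median of 0.11 was 0.25 with the software's ratio. The antagonist median of -0.0095 was -0.027 with an offset of 16, -0.0202 with background left in, 0.0439 with median centring and -0.016 in the software's values. On single arrays the medians ranged from -0.04 to 0.02 for ligands, 0.04 to 0.17 for receptors, -0.01 to -0.0085 for antagonists and 0.08 to 0.23 for feedback genes. The cause of these changes was not tested. Low signal over background limits, among others, Wnt8a, Axin2, Wif1, Lgr5, Wnt3, Wnt10b and, on replicate 2, Sfrp4 and Sfrp5. With 1 pool per genotype, no value here measures the spread between embryos.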

Other observations

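The level of each gene, taken as the mean log2 signal of both pools, was compared between the arrays. Over the 45 detected members it differed by a median of 0.076 in absolute value, and by more than 0.5 for Sfrp4 and Tcf7 only. Sfrp4 stood at 7.41 on replicate 1 and 6.26 on replicate 2, and Tcf7 at 7.46 and 6.68. Over all detected genes the median was 0.142, and 6.11% differed by more than 0.5.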
